A study of Homo sapiens with 9 samples.

Results

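The 135 genes described here rose in MP41 cells after transfection of a synthetic miR-16, and stayed on average near their starting level after transfection of the control mimic miR-CTR. They were chosen by measured values: a normalized log2 value of at least 7 in the 0 h library, a mean of the miR-16 libraries of 24 and 48 h at least 0.5 above 0 h (1.41-fold), and a mean of the miR-CTR libraries of 24 and 48 h within 0.2 of 0 h (1.15-fold). They are 135 of the 14839 genes measured, and 1.21% of the 11137 genes that passed the 0 h floor. The values at 0, 24, and 48 h are therefore given as a description of the choice. The libraries of 6 and 12 h had no part in the choice and are the independent readout.

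miR-16 belongs to a family of microRNAs that restrain the cell cycle. A microRNA guides an Argonaute protein to messenger RNAs that pair with its seed, the bases near its 5′ end, and the usual result is less of that RNA and less protein. The genes described here moved the other way, and the study asked which RNAs increase after transfection of miR-16 beside those that decrease.

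MP41 is a uveal melanoma line, a tumour of the pigmented cells of the eye, here grown with 20% serum. Cells (250000 seeded) were transfected at 66 nM with miR-16 or miR-CTR and collected after 6, 12, 24, and 48 h, and polyA RNA was sequenced. The starting library (0 h) carries the label of the miR-CTR series and no transfection time had passed, so all later libraries, controls included, also carry the lipid transfection and the time in culture. Each of the 9 conditions had 1 library of 1 cell line, so the conditions could not be tested against each other and the spread between cultures is not known. Standard errors (SE) printed below cover the counting of reads only.

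The libraries held between 20270000 and 27370000 recovered reads, with miR-16 at 6 h the shallowest and miR-CTR at 48 h the deepest. The melanocyte markers MITF, SOX10, PMEL, MLANA, TYR, TYRP1, and DCT all had values above 12 at 0 h, and of 13 markers of other cell types 9 were not listed in the table, among them EPCAM, PTPRC, and PECAM1. The other 4 were listed at 5.48 (CD68), 6.94 (LUM), 8.31 (COL1A1), and 8.38 (BEST1) at 0 h. CCND3 and WEE1, established targets of miR-16, had late differences (miR-16 minus miR-CTR, mean of 24 and 48 h) of −1.02 and −1.055.

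The seeds of both mimics bear on every comparison below, so their sequences are shown first. Capitals mark bases 2 to 8, the seed, and both are written 5′ to 3′.
hsa-miR-16-5p: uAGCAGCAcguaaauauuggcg
control sequence: uUGUACUAcacaaaaguacug
The miR-16 sequence is that of RefSeq, encoded at MIR16-1 on chromosome 13 (50049027 to 50049048, reverse strand) and MIR16-2 on chromosome 3 (160404754 to 160404775, forward strand) of GRCh38. The control sequence comes from the study's oligonucleotide list, where the names of the biotinylated miR-16 and miR-CTR stand exchanged. It was taken as the sequence of miR-CTR, an assumption on which the values for it rest.

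Of the 11137 genes at or above the floor, 1003 (9.01%) had a late miR-16 level at least 0.5 above 0 h, a value the choice used and from which nothing is read. Of these, 843 also rose by more than 0.2 with miR-CTR, 25 fell by more than 0.2 with it, and the 135 genes are those in between (13.5%). The median rise of the 135 genes was 0.60 (1.52-fold), from 0.50 to 1.295, and 6 genes doubled or more. Their median late change with miR-CTR was 0.095, from −0.195 to 0.2. Changes with miR-CTR were above 0 for 100 genes and below 0 for 34.

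Flat describes the mean of both times and not each library. Of the 135 genes, 66 lay more than 0.2 from 0 h in the miR-CTR library of 24 or of 48 h. At 48 h, 44 were more than 0.2 above and 5 more than 0.2 below. With miR-16, 53 genes were 0.5 or more above 0 h at both times, 78 had not reached 0.5 at 24 h, and 4 were under it at 48 h. The median counting SE of the rise was 0.0866.

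**Figure D1:**
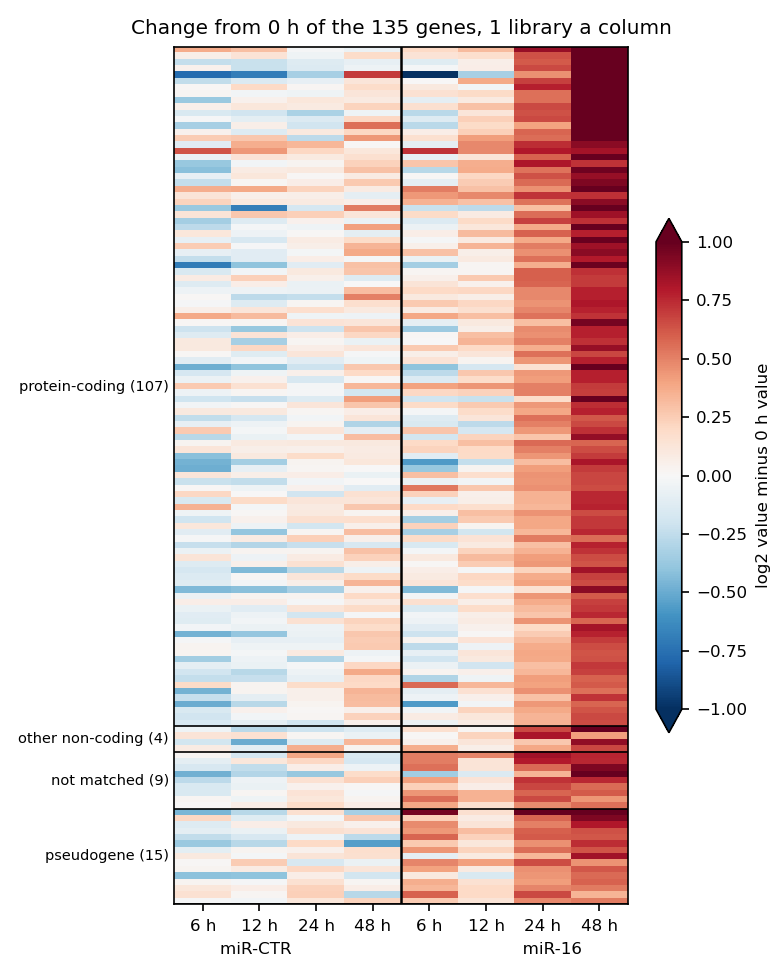
Change from 0 h of each of the 135 genes (a row each, ordered by gene type and then by late rise) in the 8 transfected libraries (columns: miR-CTR, then miR-16, at 6, 12, 24, and 48 h). Colour is the log2 value minus the 0 h value and is capped at 1 in size. The miR-16 columns of 24 and 48 h, which chose the genes, are the deepest red. Most of the pseudogenes at the bottom are already red at 6 h with miR-16.

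The values nearest to the thresholds show how the choice was made. AC079250.1 and OTUD5 lay on the rise threshold (0.50), and PSTPIP2 and CREB3L4 missed it (0.495). KCTD18 lay on the upper limit for miR-CTR (0.2), and PRKCZ and METTL21B passed it (0.205). At the lower limit, LIPA (−0.195) and CSRP2 (−0.18) were inside and EHD3 (−0.215) and LENG9 (−0.23) outside. RP11-745A24.2 (7.02) and RP11-179G5.1 (7.03) stood just above the floor at 0 h, and RP11-273G15.2 (6.95) and RP11-345K20.2 (6.94) just below it.

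Already at 6 h, 103 of the 135 genes (76.3%) had a higher value with miR-16 than with miR-CTR, compared with 50% of all 11137 genes. At 12 h this held for 122 genes (90.4%), compared with 48.2% of all genes. The miR-16 value was the higher at both times for 93 genes (68.9%, compared with 28.4% of all genes) and at neither time for 3. The differences were small: the median was 0.12 at 6 h and 0.19 at 12 h, compared with 0.01 and 0.00 over all 11137 genes. At 6 h, 57 genes exceeded 0 by more than 1.96 counting SE and 4 lay below 0 by as much. Of all 11137 genes, 2147 and 1865 did so. At 12 h these numbers were 72 and 1 for the 135 genes, and 2133 and 2346 for all genes.

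Few of the early differences were large. The 135 genes were less abundant at 0 h than all 11137 genes, with median values of 8.59 and 9.89. Their median counting SE of the difference averaged over 6 and 12 h was 0.074, compared with 0.0471 for all genes. Shares past a fixed limit thus stand beside a background with smaller counting error. The mean of 6 and 12 h was above 0.5 for 6 genes (4.44%, compared with 0.539% of all genes): the pseudogenes RPL13AP25, RPL7P15, and RPL7P44, the clone-named RP11-745A24.2 and RP11-572P18.1, and PXK, which encodes a kinase-like protein of endosomes. RP11-329A14.1 (0.465) and CTD-2031P19.4 (0.46) followed. At 6 h alone 14 genes passed 0.5, where 0.62% of all genes did, and 7 of the 14 were pseudogenes. At 12 h alone 4 genes passed it, where 0.952% of all genes did: VASH2, BMF, DLX6-AS1, and RP11-745A24.2. The lowest early means were those of RRNAD1 (−0.15), NRCAM (−0.14), PTCRA (−0.075), and CLIP3 (−0.07).

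Genes with other late courses had other early values. The 843 genes that rose late with both mimics had a median early difference of 0.015, and 48.6% of them were higher with miR-16 at 12 h. The mirror image, a late rise of 0.5 with miR-CTR and a late change within 0.2 with miR-16, was met by 83 genes. Their median early difference was −0.19, with 17 of 83 higher with miR-16 at 6 h and 0 of 83 at 12 h. All of these sets share the same 4 early libraries, 1 for each condition, and the differences between sets were not tested.

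**Figure D2:**
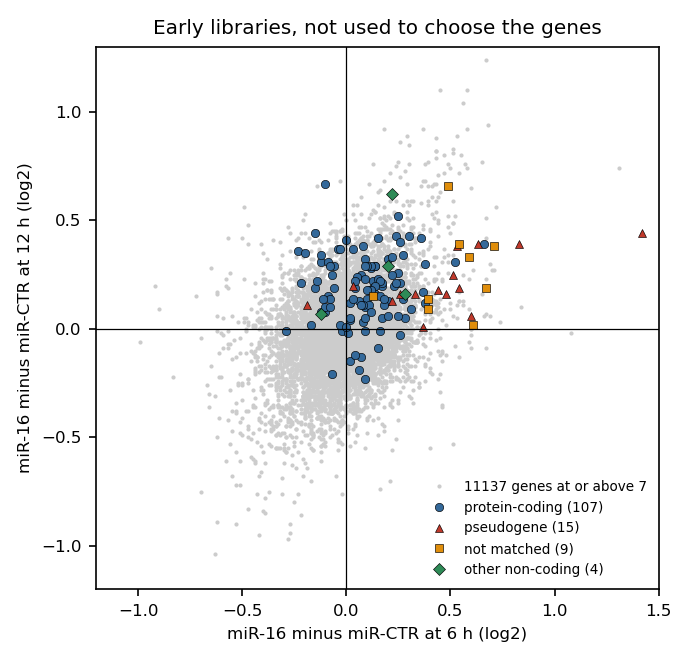
Difference between miR-16 and miR-CTR at 6 h (x axis) and at 12 h (y axis), in log2 units, for the 11137 genes at or above the floor (grey; 3 lie outside the axes) and the 135 genes by type. Most of the 135 points lie above 0 on both axes, and the pseudogenes and the genes with no annotation match reach furthest to the right.

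By gene type, 107 of the 135 genes were protein-coding (79.3%, compared with 91.8% of the genes at or above the floor), 15 were pseudogenes (11.1%, compared with 3.85%), 4 were other non-coding RNAs, and 9 (6.67%, compared with 3.07%) had names that matched no gene of the annotation used.

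The protein-coding genes climbed through the series. After 6, 12, 24, and 48 h of miR-16 their median change from 0 h was 0.00, 0.15, 0.45, and 0.77, while with miR-CTR it was −0.08, −0.03, 0.02, and 0.12. From 6 to 12 h, 79 of the 107 rose with miR-16 (73.8%, compared with 46.2% of all protein-coding genes at or above the floor). With miR-CTR, 63 of the 107 rose over the same interval, for which the share over all genes was not computed. All but 1 of the 107 were higher at 48 h than at 24 h, a value the choice touched. The exception was PXK.

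The pseudogenes among the 135 had another course. Their median change with miR-16 was 0.40 at 6 h, fell back to 0.15 at 12 h, and was 0.50 at 24 h and 0.62 at 48 h, while with miR-CTR it was −0.01, −0.02, 0.13, and 0.04. All but 1 of the 15 were higher at 6 h than at 12 h with miR-16, compared with 234 of all 429 pseudogenes at or above the floor. At 6 h, 12 of the 15 exceeded miR-CTR by more than 1.96 counting SE and 0 lay below it by as much. Of the 429, these numbers were 128 and 67. The median 6 h difference was 0.48 for them, 0.09 for the 107 protein-coding genes, and 0.05 for all 429 pseudogenes at or above the floor. The 9 unmatched genes resembled them, with a median 6 h difference of 0.54. The miR-16 library of 6 h was the shallowest of the series, and its part in these values was not tested.

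**Figure D3:**
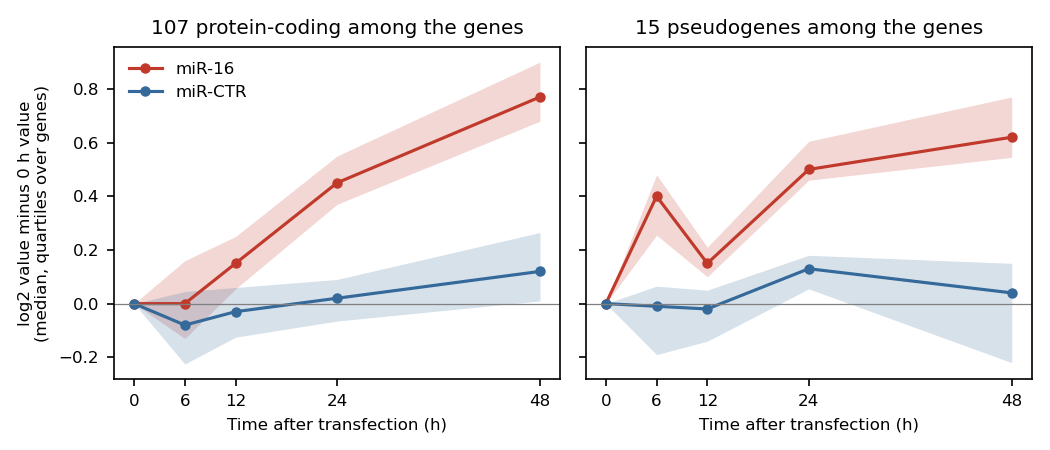
Median change from 0 h (y axis, log2; shaded, the quartiles over genes) against time (x axis, h) with miR-16 and miR-CTR, for the 107 protein-coding genes (left) and the 15 pseudogenes (right). The protein-coding median climbs from 0.00 at 6 h to 0.77 at 48 h with miR-16, and the pseudogene median is 0.40 at 6 h, 0.15 at 12 h, and 0.62 at 48 h.

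A processed pseudogene is a copy of a messenger RNA inserted back into the genome, so its reads resemble those of its parent. RPL13AP25 (ENSG00000136149.6, chromosome 13, 54440704 to 54441315, reverse strand, GRCh38) is a copy of RPL13A, which encodes a protein of the large ribosomal subunit. It had the largest rise of the 135. Its values with miR-16 were 8.11, 7.31, 8.48, and 8.41 at 6, 12, 24, and 48 h, compared with 6.69, 6.87, 7.31, and 6.82 with miR-CTR and 7.15 at 0 h. Each miR-16 value was thus above the miR-CTR value of its time, and the value of 12 h lay lowest. The late rise was 1.295 (counting SE 0.136, 2.45-fold) and the 6 h difference 1.42 (counting SE 0.168), on 136 reads at 0 h.

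The parent RPL13A moved little, with a late rise of 0.265 with miR-16 and 0.215 with miR-CTR, and a 6 h difference of 0.01. Copy and parent agree at 97.71% of 612 aligned bases, with 14 differences. The stretch of 30 bases with most differences, 3 of the 14, is shown as an example. A read must cover at least 1 of the 14 for both to be told apart. Capitals mark the differing bases.
RPL13AP25: aagcggatgaacaccaGcccttccAgaggT
RPL13A: aagcggatgaacaccaAcccttccCgaggC
The differences here are A194G, C202A, and C207T, with the base of RPL13A first and positions counted from the first base of the RPL13AP25 transcript. How reads that fit more than 1 place were counted is not given in the sources used here, so the values of pseudogenes are uncertain.

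The other pseudogenes had smaller 6 h differences. RPL7P15 stood at 10.71 at 6 h with miR-16 and at 9.88 with miR-CTR, a difference of 0.83 (counting SE 0.0595), with a late rise of 0.615. RPL7P44 and TPT1P9 had 6 h differences of 0.63 and 0.60. RPL7AP11, RPL41P2, RHOQP2, SUMO2P3, CHCHD2P6, RPS23P8, RPL7P1, AC079250.1, and RPL24P8 lay between 0.22 and 0.54, FAM86C2P at 0.03, and PROSP, a copy of the protein S gene PROS1, at −0.19. FAM86C2P and PROSP are annotated as unprocessed pseudogenes and the rest of the 15 as processed. Ribosomal protein copies made up 8 of the 15 by name. The 15 matched their closest protein-coding transcript at 87.81% to 99.6% of bases, and for the 14 pseudogenes with a measured parent the median 6 h difference of the parent was −0.005. Over all 79 ribosomal protein pseudogenes at or above the floor, 40 were higher with miR-16 at 6 h and 15 by more than 0.3, against 42 and 1 of the 80 genes with ribosomal protein symbols.

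Among the protein-coding genes the largest rises were those of PTCRA, ANTXR1, CRADD, and MAML3. PTCRA (chromosome 6, 42915989 to 42925835), which encodes the invariant chain of the pre-T cell receptor, had 8.33 and 9.10 at 24 and 48 h with miR-16, compared with 7.45 and 7.40 with miR-CTR and 7.46 at 0 h. Its early values did not separate, with 7.66 and 7.78 with miR-16 at 6 and 12 h and 7.83 and 7.76 with miR-CTR. The rise was 1.255 (counting SE 0.123). Its level at 0 h rested on 169 reads.

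ANTXR1 (chromosome 2, 69013178 to 69249327), a receptor for collagen and for anthrax toxin, went from 9.94 at 0 h to 10.08, 10.11, 10.58, and 11.37 with miR-16, while miR-CTR gave values from 9.90 (24 h) to 10.12 (48 h). The mimics parted after 12 h. CRADD (chromosome 12, 93677375 to 93894840), an adaptor with a death domain that joins caspase-2 to its platform, went from 10.45 to 10.33, 10.51, 11.06, and 11.87 with miR-16 and lay between 10.21 and 10.37 with miR-CTR. Its miR-16 value was the higher at each of the 4 times, by 0.12 at 6 h and 0.28 at 12 h. The counting SE of the 12 h difference was 0.0545.

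BMF (chromosome 15, 40087890 to 40108892) is a BH3-only protein that promotes apoptosis. With miR-16 it had 10.05, 10.43, 10.73, and 11.26, compared with 9.80, 9.91, 9.97, and 10.17 with miR-CTR and 10.05 at 0 h. It was the higher with miR-16 at all 4 times, and the 12 h difference of 0.52 (counting SE 0.0587) was among the 4 above 0.5. Of the 30 apoptosis regulators of the list used here, BMF was the only member of the 135. Late differences above 0.5 were found for 2 of the 30, BMF (0.925) and FAS (0.525), and below −0.5 for 3 (BCL2L2, BCL2L12, and PMAIP1), where 3.98% and 4.86% of all genes passed these limits. Late differences come from libraries that the choice used, so such counts, here and in the lists below, are a description only. FAS was no member because its late changes were −0.34 with miR-16 and −0.865 with miR-CTR.

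MAML3 (chromosome 4, 139716753 to 140154184), a co-activator of Notch signalling, had 8.18, 8.27, 8.86, and 9.55 with miR-16, compared with 8.24, 7.98, 8.06, and 8.15 with miR-CTR and 8.20 at 0 h. The values parted at 12 h by 0.29, where the change from 0 h was 0.07 with miR-16 and −0.22 with miR-CTR. At 24 and 48 h the changes with miR-CTR were −0.14 and −0.05. Of the 21 Notch pathway genes at or above the floor MAML3 was the only member. Among them, 2 passed a late difference of 0.5 (MAML3 and NUMBL), where 3.98% of all genes did. MAML1 and MAML2, its relatives, had late changes of −0.045 and 0.305 with miR-16.

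NANOS1, which encodes an RNA-binding translational repressor, met the rule only on average. From 9.25 at 0 h it had 8.25, 8.92, 9.71, and 10.78 with miR-16 and 8.48, 8.56, 8.92, and 9.95 with miR-CTR. It thus fell and rose with both mimics, and its miR-CTR values of 24 and 48 h lay 0.33 below and 0.70 above 0 h. The miR-16 value was the lower at 6 h and the higher from 12 h on.

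EXTL1, NMNAT2, MEX3A, and CLIP3 were also among the 12 largest rises. EXTL1, a glycosyltransferase of heparan sulfate synthesis, reached 11.39 at 48 h with miR-16 and 10.31 with miR-CTR, from 10.19 at 0 h. NMNAT2, which makes NAD in axons, reached 9.80 against 8.73, MEX3A, an RNA-binding protein, 10.88 against 10.06, and CLIP3, a microtubule-binding protein, 8.95 against 8.05. For CLIP3 the early values gave no lead, since miR-16 was 0.23 below miR-CTR at 12 h (counting SE 0.126).

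The antisense RNA KIAA0196-AS1 rose from 7.62 to 8.28 and 9.07 at 24 and 48 h with miR-16 and had 7.41 and 7.49 with miR-CTR. KIAA0196, on the opposite strand of the same place, is far more abundant (12.84 at 0 h) and changed by −0.23 with miR-16 and 0.16 with miR-CTR. DLX6-AS1 rose by 0.58 with miR-16 and changed by 0.10 with miR-CTR, a late difference of 0.48, while DLX6 changed by 0.005 and −0.44, a late difference of 0.445. Whether the reads were counted by strand is not given in the sources used here, so an antisense RNA and its partner cannot be told apart with certainty. Of the 126 genes with a position, 43 overlapped another measured gene. The share over all genes was not computed, so nothing is read from this count.

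**Figure D4:**
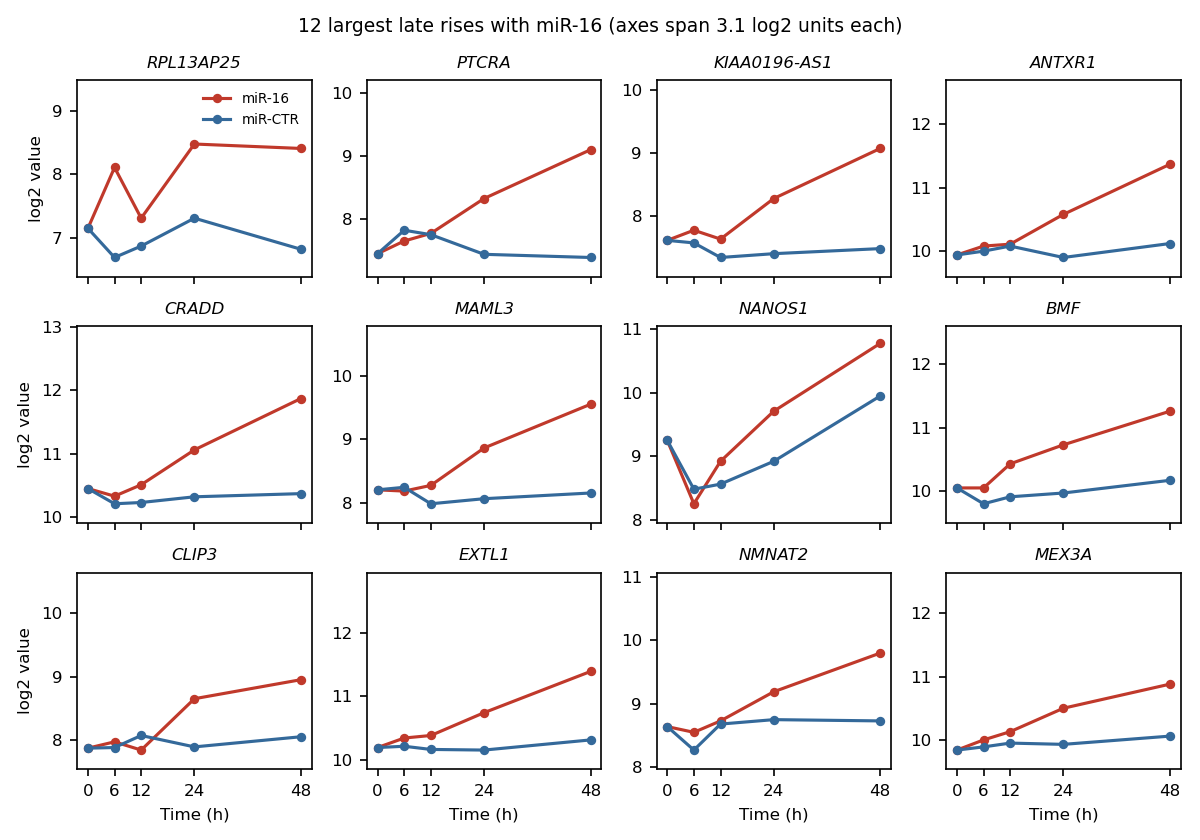
Normalized log2 value (y axis; each panel spans 3.1 units) against time (x axis, h) for the 12 genes with the largest late rise with miR-16, 1 library a point. In each panel the miR-16 value lies above the miR-CTR value at 24 and 48 h, RPL13AP25 parts at 6 h, BMF has a difference of 0.52 at 12 h, and NANOS1 rises with both mimics.

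The most abundant of the 135 genes were ST3GAL1, PROS1, RPL39, TSPAN14, WFDC1, PHLDB1, GIT2, and SWAP70, and for them counting error is least. ST3GAL1, a Golgi sialyltransferase, had 13.19, 13.36, 13.63, and 14.25 with miR-16, compared with 12.99, 13.23, 13.21, and 13.66 with miR-CTR and 13.25 at 0 h. It was the higher with miR-16 at each time, by 0.20 at 6 h (counting SE 0.0224) and 0.13 at 12 h (counting SE 0.0197). At 48 h its miR-CTR value also lay above 0 h. GALNT10, another Golgi glycosyltransferase, rose by 0.61 and had a late change of −0.075 with miR-CTR. The 45 genes of the secretory pathway list held no further member, with 4 late differences above 0.5 (3.98% of all genes) and 2 below −0.5 (4.86% of all genes).

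TSPAN14 and LIPA were of interest because the study placed both in a gene signature. TSPAN14 (chromosome 10, 80454166 to 80533123), a tetraspanin that escorts the protease ADAM10, went from 12.23 at 0 h to 12.14, 12.48, 12.80, and 13.16 with miR-16, and to 11.99, 12.25, 12.30, and 12.49 with miR-CTR. The miR-16 value was the higher at each time, by 0.15 to 0.67. LIPA (chromosome 10, 89213569 to 89414557), the lysosomal acid lipase, had 10.60, 10.84, 11.05, and 11.52 with miR-16 and 10.52, 10.46, 10.52, and 10.59 with miR-CTR, from 10.75 at 0 h. All 4 of its control values lay below 0 h and its miR-16 values passed it from 12 h on. It was the only member among 49 lysosomal genes, whose median late change was 0.065 with miR-16 and 0.245 with miR-CTR. CTSH, a lysosomal cysteine protease outside that list, was also a member, with a late rise of 0.51.

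PROS1 (protein S, a plasma anticoagulant) rose from 12.96 to 13.79 at 48 h with miR-16 and had 13.14 with miR-CTR, but at 6 h it was lower with miR-16 by 0.08 (counting SE 0.0240). RPL39, a ribosomal protein, was higher with miR-16 at each time by 0.21 to 0.34. It was the only one of 75 ribosomal proteins among the 135, at the edge of the limit for miR-CTR (0.2). GIT2, a regulator of ARF GTPases, was higher by 0.26, 0.21, 0.51, and 0.87, and PHLDB1, WFDC1, and SWAP70 were higher with miR-16 at all 4 times as well.

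Several members act in signalling from growth factor receptors. SPRY4 and SPRY1 are Sprouty inhibitors of ERK signalling that ERK itself induces. SPRY4 had 11.47, 11.67, 12.10, and 12.33 with miR-16, compared with 11.38, 11.57, 11.47, and 11.54 with miR-CTR and 11.46 at 0 h, and SPRY1 reached 9.06 and 9.32 compared with 8.38 and 8.66. Both were higher with miR-16 at every time. Of the 15 ERK feedback genes of the list, 6 had late differences above 0.5 (SPRY4, SPRY1, PHLDA1, ETV1, DUSP4, and DUSP6) and 2 below −0.5 (SPRED1 and CCND1), where 3.98% and 4.86% of all genes passed these limits. The 4 that were not members failed at different points. DUSP6 rose by 0.665 with miR-16 and fell by 0.95 with miR-CTR, PHLDA1 rose with both, and ETV1 and DUSP4 did not rise with miR-16. SPRY2 had 0.13 with miR-16 and −0.29 with miR-CTR. These late values rest on libraries that the choice used. In the early libraries, which it did not use, the 15 genes had a median difference of 0.095. Of the 15, 0 had an early mean above 0.5 (0.539% of all genes) and 0 below −0.5.

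ERBB3, the receptor for neuregulin, rose from 11.49 to 11.95 and 12.27 with miR-16 and to 11.56 and 11.70 with miR-CTR. IRS1, the docking protein of the insulin and IGF receptors, rose from 10.27 to 10.65 and 11.26 and to 10.35 and 10.46. Both were higher with miR-16 at 6 and 12 h too, ERBB3 by 0.14 and 0.16 and IRS1 by 0.07 and 0.25. They were the 2 members among 43 receptor and RAS pathway genes, of which 3 had late differences above 0.5, IRS1 among them, and 2 below −0.5 (3.98% and 4.86% of all genes). ERBB3 was also the only member among 27 melanocyte lineage genes, whose median late rise of 0.515 with miR-16 stood beside 0.35 with miR-CTR.

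ICAM1, the adhesion receptor for leukocyte integrins, reached 12.23 at 48 h with miR-16 and 11.63 with miR-CTR, from 11.55, with a 12 h difference of −0.01. TM7SF2, a sterol reductase, rose by 0.585 and ARHGEF17, an activator of RhoA, by 0.53. SUFU and GLI2, the inhibitor and a transcription factor of the Hedgehog pathway, rose by 0.72 and 0.705, and SUFU alone was higher with miR-16 at 6 and 12 h. These Hedgehog genes belonged to no list used here and were grouped after their values were seen. Of the 23 G1 regulators, 39 DNA replication genes, 34 mitotic genes, and 18 established miR-16 targets of the lists, none was among the 135, where 1.21% of all genes at or above the floor were members. From a share that low, these counts of 0 are not a result about the groups.

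Across all 61 lists and gene families, 26 of the 135 genes belonged to at least 1 and 109 to none. The largest number in 1 list was 4, for the zinc finger proteins ZNF483, ZNF276, ZBTB47, and ZBTB22 among 352. That is 1.14%, near the 1.21% of all genes at or above the floor, so the number is not a result about this family. FBXO44 and FBXO6, substrate receptors of ubiquitin ligases, lie 797 bases apart on chromosome 1 and were both members, with rises of 0.585 and 0.535. PTCRA and CUL7 lie 111782 bases apart on chromosome 6. Both pairs are examples of members within 200000 bases of each other. How often such pairs occur among all genes was not computed.

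Canonical seed matches were counted in the longest annotated 3′UTR of each protein-coding gene. Of the 107 protein-coding members, 28 held at least 1 match to the miR-16 seed (26.2%, 95% Wilson interval 18.8% to 35.2%), compared with 30.2% of the 10197 genes at or above the floor with a 3′UTR. The median 3′UTR was of like length, 1471 and 1478 bases. The strongest class, the 8mer, was found in 3 members (2.8%), compared with 5.14%. For comparison, 57.8% of the 509 genes with a late difference below −0.5 held a canonical match and 16.5% an 8mer. The intervals describe the number of genes only.

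The 3 members with an 8mer are shown with the 14 bases upstream of the match, since they hold the best match to a mimic with which they rose. Capitals mark the 8mer, which pairs with bases 2 to 8 of miR-16 and ends in A, and coordinates are GRCh38.
CRADD: gtagataacagagaTGCTGCTA
NMNAT2: ctctgggagggctgTGCTGCTA
TSPAN14: tcagtaattgagagTGCTGCTA
They lie in the 3′UTR at chr12:93894308-93894329 (forward strand), chr1:183249279-183249300 (reverse strand), and chr10:80525048-80525069 (forward strand), 398, 1042, and 8054 bases before the annotated end. The longest annotated 3′UTR of TSPAN14 has 15147 bases. Whether MP41 cells express the longest forms of these 3 genes was not tested. Shorter canonical matches were found in BMF, MEX3A, NANOS1, SPRY4, and IRS1, among others.

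Medians of members with and without a miR-16 match lay close together. The median rise was 0.60 in the 28 with a match and 0.595 in the 79 without, and the median 12 h difference was 0.21 and 0.16. Among all genes at or above the floor with a 3′UTR, those with a match had a median late difference of −0.095 and those without of 0.005.

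The control sequence gave the other side of the comparison. Its seed match was found in 21 of the 107 members (19.6%, 95% Wilson interval 13.2% to 28.1%), compared with 15.3% of the 10197 genes. Of the 390 genes with a late difference above 0.5, 35.6% held it, and of the 509 below −0.5, 10%. The genes chosen here thus lay between all genes and the genes defined only by the late difference, with an interval that includes the share of all genes.

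**Figure D5:**
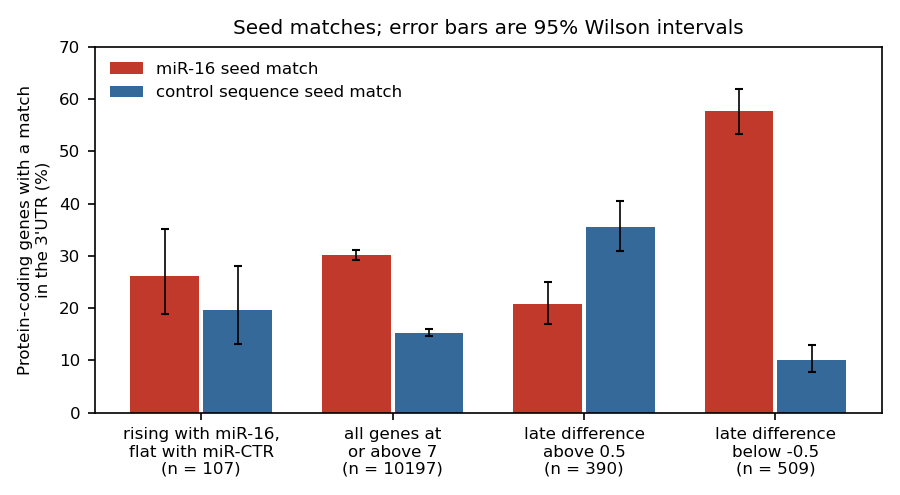
Share of protein-coding genes with a canonical seed match in the 3′UTR (y axis, %, bars from 0 with 95% Wilson intervals) for miR-16 and the control sequence, in 4 gene sets (x axis; n is the number with a 3′UTR). The 107 members stand at 26.2% and 19.6%, near all genes (30.2% and 15.3%), while genes with a late difference below −0.5 stand at 57.8% for miR-16.

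Promoter windows (250 bases before to 50 after the gene start, RefSeq, GRCh38.p14) were found for 85 of the 135 genes and 8408 genes at or above the floor. The 2 motifs with the highest ratio to that background were the FOXO site GTAAACA, in 5 members (5.88%, compared with 2.15% of genes at or above the floor and 3.41% of all 27305 promoters), and the M-box TCATGTG, a site that MITF is known to bind in pigment genes, in 4 members (4.71%, compared with 1.68% and 2.99%). These were picked from 13 motifs, both strands searched, after their shares were seen. The M-box genes were ANTXR1, GIT2, SPRY1, and PARP3, shown here with the motif in capitals, read on the strand opposite to the gene in all 4.
ANTXR1: cttaccattcTCATGTGagctgtgcgt
GIT2: gagtgtcaggTCATGTGaccggaaagg
SPRY1: tccggtgataTCATGTGtcaatcactc
PARP3: cgctgcTCATGTGgccggggcct
The windows lie at chr2:69012909-69012935, chr12:109996400-109996426, chr4:123396717-123396743, and chr3:51942390-51942412.

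The FOXO site was found in CRADD, MAML3, JMY, PROS1, and SWAP70. For the other motifs, shares are given for members and then for genes at or above the floor. The GC box GGGCGG was found in 77.6% and 72.4% (44.6% of all promoters), the TATA box TATAAA in 5.88% and 4.76%, the EGR site GCGTGGGCG in 1.18% and 1.33%, and the CCAAT box in 25.9% and 37.2%. Lower shares were also found for the CACGTG E-box (5.88% and 10.9%), the ETS site CCGGAAGT (3.53% and 9.84%), the TEAD site GGAATG (5.88% and 10.4%), the YY1 site AAGATGGC (1.18% and 6.18%), the CRE TGACGTCA (1.18% and 3.59%), the E2F site TTTCCCGC (1.18% and 2.88%), and the AP-1 site TGACTCA (0 of 85, which allows a share of up to 3.53%, and 2.51%). A motif match is a string of letters and not a bound site.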

How the data were processed

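PolyA RNA of MP41 cells was sequenced in 9 libraries, 1 per condition. The authors deposited 1 table of normalized log2 values for 14839 genes, with 2 decimals. Per the submitters' processing notes, FastQC, STAR (2.4.0a), featureCounts (Subread 1.5.0-p3), and hg38 (GRCh38) were used; the normalization is not given in the sources used here. In each library, 2 to the power of the value, less 1, was a whole multiple of 1 step for 100% of values up to 5 (within 0.005 on the log2 scale), the form of log2(reads / size factor + 1). Counting SE came from the reads so recovered. The columns are numbered T0, T1, T2, T4, and T5 and were taken as 0, 6, 12, 24, and 48 h in this order.

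The rule was applied to the deposited log2 values as they stand. The members and lists were chosen with earlier results of these data known, so no list is independent support. A gene was called past 0.5 in size. No p-value was computed, since a condition had 1 library. Wilson intervals of 95% were computed for the shares of seed matches only. Symbols were joined to GENCODE 29 directly (13002 genes) or through a RefSeq synonym (543), 91.28% in all and 126 of the 135. Sites were exact matches in the longest annotated 3′UTR, and pseudogenes were aligned with BLAST 2.17.0. The genes named are the 12 largest rises, the 8 highest 0 h values, the 8 largest and 4 lowest early differences, members of lists, and those nearest to a threshold; VASH2, DLX6-AS1, SUFU, GLI2, CTSH, FBXO44, FBXO6, CUL7, JMY, PARP3, and the remaining pseudogenes were named after their values were seen. Some genes are not reported here. The rule was tested on simulated data with counting error only. The planted rise was larger and the genes more abundant than the rule requires, so genes near the thresholds were not covered. The search for sites was tested on simulated sequences with planted sites. Tables were handled in pandas 2.3.3 under Python 3.11.15, intervals came from scipy 1.17.1, and figures from matplotlib 3.10.9. Alternatives are given at the end.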

Additional observations from a re-analysis of the deposited data

How the results depend on the processing

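No paired analysis was possible because each condition had 1 library. The alternatives were other thresholds, single late times, both late times, centring on the median gene, quantile normalization, a reference of 0 h with miR-CTR at 6 and 12 h, and, added after seeing the data, protein-coding genes only. The number of genes moved from 135 to 274 with a rise of 0.4, to 36 with 0.7, to 63 with miR-CTR within 0.1, to 226 within 0.3, and to 30 with both late times past the thresholds. Quantile normalization gave 130 genes, 110 of them the same, the 24 h libraries alone gave 101, of which 47 were the same, the 48 h libraries alone gave 198, with 83 the same, and the wider reference gave 183, with 82 the same. The share higher with miR-16 at 6 h was 66.7% with the 48 h libraries alone, and that at 12 h was 80.8% with these and 84.2% with the 24 h libraries alone. The share with an early difference above 0.5 was 11.1% with a rise of 0.7, 0.935% for protein-coding genes only, and 18.5% with a call at 0.3. The share with a miR-16 seed match was 2.8% for the 8mer alone and 43% with 6mers. The median early difference was above 0 under all 13 alternatives that changed the choice of genes or the scaling, from 0.125 to 0.18. The cause of these moves was not tested beyond the change of rule itself. With 1 library per condition, the spread between cultures is not known, and depth limits the values through the counting errors given.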
